A study of Canis lupus familiaris with 2 samples.

Results

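The 7 genes described here encode lens crystallins and related proteins: CRYAA and CRYAB (alpha crystallins), CRYBB1 and CRYBB2 (beta crystallins), CRYGS (gamma S crystallin), CRYM (mu crystallin) and HSPB1 (heat shock protein 27). They were chosen by name. N350 listed 34981 genes and N354 listed 19947, and all 7 genes were listed in both dogs, so that none was absent from either annotation. They were measured by droplet-based single cell RNA sequencing in dissociated punches of neuroretina from a normal male dog, N350, and a second normal male dog, N354, both 40 weeks old and both labelled Normal or Wild-type. There was no diseased, mutant or treated group, and each dog gave 1 library, so that 2 dogs were the replicates. In N354 the genes carried the identifiers ENSCAFG00000010584 (CRYAA), ENSCAFG00000014074 (CRYAB), ENSCAFG00000011779 (CRYBB1), ENSCAFG00000023827 (CRYBB2), ENSCAFG00000013524 (CRYGS), ENSCAFG00000017807 (CRYM) and ENSCAFG00000013544 (HSPB1), while N350 listed them by symbol alone.

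Crystallins are the abundant soluble proteins of the lens, and several are also made outside it. The alpha crystallins and HSPB1 belong to the small heat shock proteins, chaperones that hold unfolding proteins in solution without using ATP, and CRYAB is well known from glia as a gene induced by stress. The beta and gamma crystallins are structural proteins of the lens fibre, whereas CRYM, despite its name, is an enzyme-like protein of the cytosol that binds thyroid hormone.

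N350 had 8900 droplets with 24030707 unique molecular identifiers (UMIs, each standing for 1 captured mRNA molecule) and a median of 1298 UMIs per droplet, and N354 had 4392 droplets with 9711202 UMIs and a median of 1204.5. A droplet was placed in a cell class by the raw UMIs of marker genes, none of which was among the 7 genes. It needed at least 5 UMIs from at least 2 markers of the class and a minimum level of those markers, and droplets that met the rules of several classes were left out, except that 30 in N350 and 3 in N354 that met only those of horizontal and amacrine cells were counted as horizontal. The classes held 5234 rods in N350 and 3020 in N354, 1026 and 490 Müller glia (the radial glia of the retina), 307 and 173 cones, 308 and 235 bipolar cells, 258 and 30 amacrine cells, 85 and 13 horizontal cells, and 74 and 38 astrocyte-like glia. Smaller classes were 26 and 5 vascular cells, 11 and 3 microglia, and 22 ganglion-like cells in N350 against 0 in N354. No class was assigned to 1354 and 214 droplets. The marker POU4F1 was not in both lists and was not used. The genes that led each class by fold fitted its name for rods, cones, bipolar, horizontal, amacrine and Müller cells. The astrocyte-like glia were led by WFDC2, CAPS and FGG as well as GFAP, and the ganglion-like cells by NEFL, NEFM and SNCG with POU4F2 nearly absent, so that the names of these classes are held loosely. Only 6 barcodes were shared by the libraries. The gene lists of the dogs shared 15224 names, so that dog and gene annotation cannot be told apart in any difference between N350 and N354.

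Levels are given per 10000 UMIs: the UMIs of a gene in the pooled droplets of 1 class and dog, divided by all UMIs of those droplets. Brackets hold exact 95% intervals, which cover counting error only and not the spread between dogs. For the tests, UMIs were summed per dog and class for the 6 classes with at least 20 droplets in each dog and compared with edgeR's quasi-likelihood test, with the dog as a block and Benjamini-Hochberg adjustment over 11931 genes with at least 10 UMIs. A log2 difference from this fit is scaled by TMM normalization and is therefore not the same quantity as a ratio of levels. CRYAB, CRYM, CRYGS and HSPB1 entered the fit, CRYAB and HSPB1 with many UMIs in several classes. In N354, however, CRYAB had 10 UMIs in bipolar and 3 in amacrine cells. CRYM had 0 in cones, 2 in bipolar and 1 in amacrine cells of that dog, and CRYGS had few in every class there. The fitted values of CRYGS, and those of CRYM in these neurons, therefore rest on few UMIs. CRYBB1 entered the fit through 1 class of 1 dog, so that its fitted values are not used, and CRYAA and CRYBB2 had too few UMIs to enter.

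CRYAB, the small heat shock protein shared by lens and glia, was by far the most often captured of the 7 genes, with 38719 UMIs in N350 and 11861 in N354. Its level in Müller glia was 42.4 in N350 (42.0 to 42.9) and 32.2 in N354 (31.6 to 32.9), a mean of 37.3 ± 7.21 (SD, n = 2). In rods it was 2.40 in N350 (2.28 to 2.52) and 0.768 in N354 (0.681 to 0.864). Müller glia were therefore above rods in both dogs, 17.7 times (16.8 to 18.6) in N350 and 41.9 times (37.2 to 47.4) in N354, and the dogs differed more in rods than in Müller glia. The fitted difference of Müller glia over rods was 5.34 on the log2 scale (SE 0.52), with an adjusted p of 3.72e-08 by the quasi-likelihood test of edgeR after Benjamini-Hochberg adjustment, and 56.5% of all genes tested were called in that comparison. CRYAB stood at place 255 of 11931 genes by the size of this difference. Against the mean of the other 5 classes, Müller glia were higher by 5.14 (SE 0.29), with an adjusted p of 1.45e-11 in the same edgeR fit, where 42.0% of genes were called.

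Astrocyte-like glia came second. Their CRYAB level was 21.5 in N350 (20.2 to 22.9) and 25 in N354 (22.6 to 27.5), below Müller glia in both dogs and above every neuronal class in both dogs. The edgeR quasi-likelihood fit placed them lower than Müller glia by 1.39 on the log2 scale (SE 0.44), with a Benjamini-Hochberg adjusted p of 0.0332, in a comparison where 17.4% of genes were called and where the median of all genes was itself shifted by -0.31. Without the dog as a block this call was lost (-1.45, adjusted p 0.765). Relative to rods they were higher by 3.94 (SE 0.49, adjusted p 1.97e-06 by edgeR, 43.6% of genes called), and by 3.63 with an adjusted p of 0.0777 without the block.

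Below the glia the CRYAB levels were low, and neighbours in their order were not resolved. Cones had a level of 1.91 in N350 (1.70 to 2.15) and 0.341 in N354 (0.211 to 0.522). Bipolar cells had 1.35 (1.11 to 1.64) and 0.175 (0.0840 to 0.322), and amacrine cells had 1.31 (1.16 to 1.49) and 0.128 (0.0265 to 0.375). Neighbours in this order did not pass the edgeR test: cones differed from rods by -0.47 (adjusted p 0.550, 18.7% of genes called), bipolar cells from cones by -0.73 (adjusted p 0.379, 21.6% called) and amacrine from bipolar cells by -0.07 (adjusted p 0.963, 24.2% called). Amacrine cells differed from rods by -1.27 (SE 0.50, adjusted p 0.0397 by edgeR, 49.9% of genes called), a call that was lost without the dog as a block (-1.37, adjusted p 0.480). Horizontal cells were lowest among the neurons, with 0.350 in N350 (0.252 to 0.474) and 0.113 in N354 (0.0137 to 0.409), the latter from 2 UMIs. In an edgeR fit that admitted classes of at least 10 droplets, chosen after the data had been seen, they differed from rods by -2.75 (SE 0.58, adjusted p 0.000454, 41.9% of genes called). Horizontal cells did not pass against their neighbours in that edgeR fit. Amacrine over horizontal cells gave 1.47 (adjusted p 0.0927, 19.4% called), and horizontal over bipolar cells gave -1.55 (adjusted p 0.0660). Single droplets weighed on these values in both dogs. In N350, 1 cone droplet held 120 of the 286 CRYAB UMIs of that class together with 82 UMIs of the Müller markers. Without that droplet the level in cones was 1.12. An amacrine droplet of N350 held 43 of 253 UMIs, and without it the level was 1.10. In N354, 1 cone droplet held 7 of 21 CRYAB UMIs together with 24 UMIs of the Müller markers. Without that droplet the level in cones was 0.230.

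**Figure D1:**
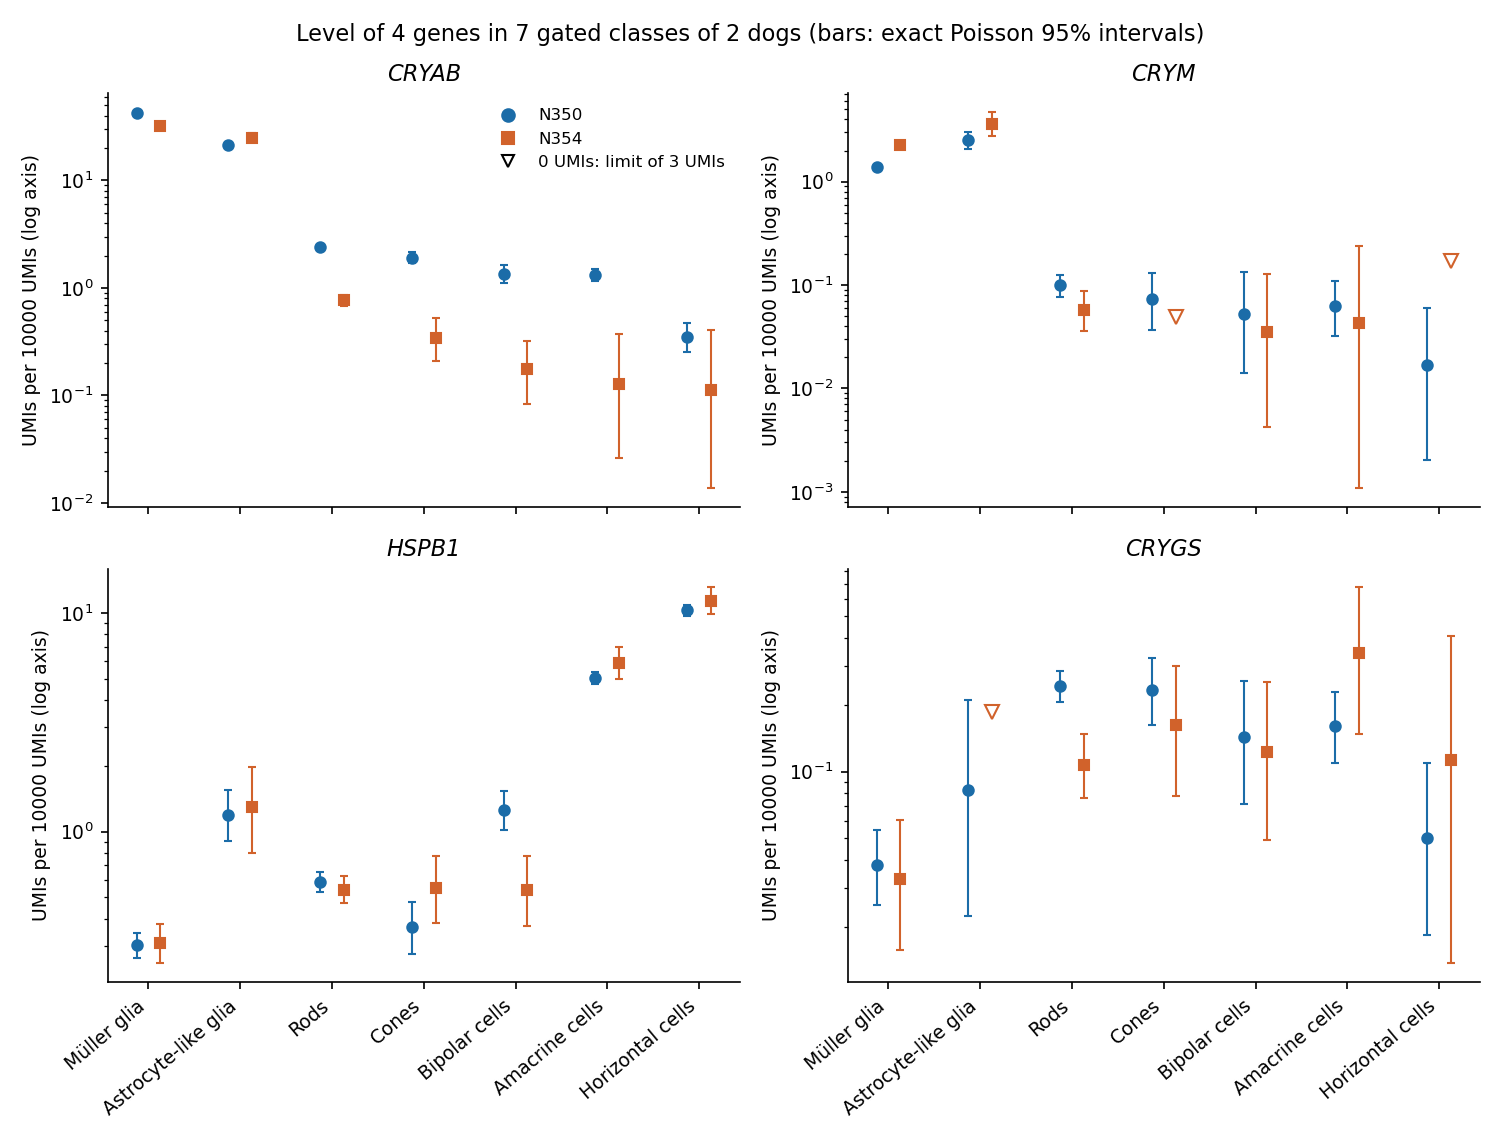
Level of CRYAB, CRYM, HSPB1 and CRYGS (UMIs per 10000 UMIs, log axis) in 7 classes of droplets, with 1 point per dog (N350 round, N354 square), bars for exact Poisson 95% intervals, and open triangles for the limit of 3 UMIs where none was counted. CRYAB and CRYM were highest in the Müller and astrocyte-like glia of both dogs, HSPB1 in horizontal cells (10.3 and 11.4), and CRYGS stayed between 0.0329 and 0.342 wherever it was counted.

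CRYAB was a broad property of Müller glia rather than of a few droplets. A CRYAB UMI was present in 97.7% (96.5 to 98.5) of Müller glia in N350 and in 97.8% in N354 (96.0 to 98.9), at median depths of 6852.5 and 5898.5 UMIs, and 24 and 11 droplets held none. In rods, at median depths of 1069.5 and 1014 UMIs, the share was 17.9% (16.9 to 19.0) and 4.90% (4.16 to 5.73). To compare shares at 1 depth, droplets with fewer than 1000 UMIs were left out (77 and 48 Müller glia, 2296 and 1470 rods) and the others were thinned to 1000 UMIs each. The share was then 92.5% and 89.6% in Müller glia against 12.6% and 3.88% in rods, which leaves the shallower rods out of view. The number per droplet varied widely among Müller glia, with a median of 21 UMIs in N350 and 15 in N354, and the tenth of droplets with most held at least 74.5 and 45 UMIs. Astrocyte-like glia varied less, with medians of 10.5 and 9.5 UMIs and at least 1 UMI in 100% of droplets in both dogs, and no more than 1 of their droplets reached 50 UMIs in either dog.

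The share of all CRYAB UMIs that lay in Müller glia was 81.0% in N350 and 82.7% in N354. An even spread over droplets would place 11.5% and 11.2% there, so that the class held 7.02 times (6.95 to 7.10) and 7.40 times (7.26 to 7.55) its even share. Müller glia are large cells with many UMIs, and against an even spread over UMIs, which places 30.8% and 31.4% there, the excess was 2.63 times in both dogs. Rods held only 0.149 and 0.0627 times their even share of UMIs. 

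**Figure D2:**
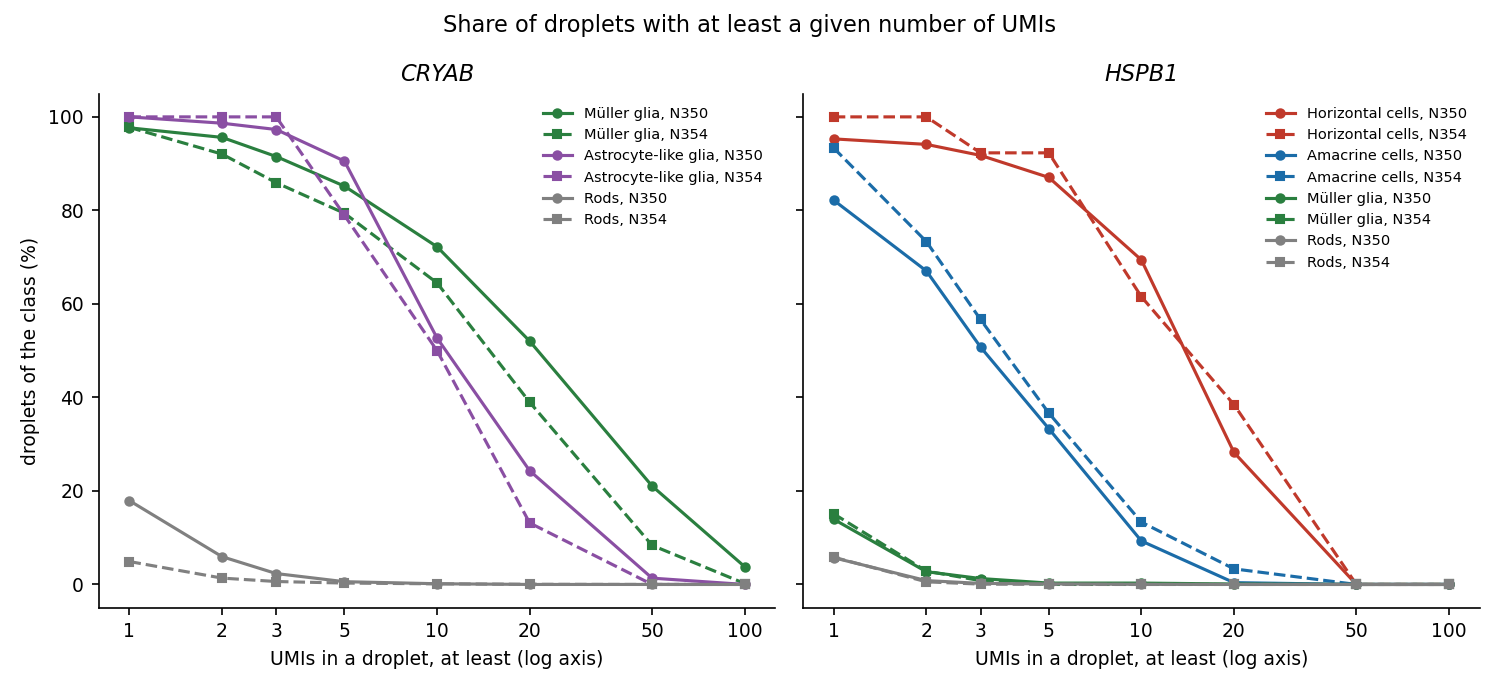
Share of droplets of a class (%) that held at least a given number of UMIs (log axis) of CRYAB (left) and HSPB1 (right), with solid lines for N350 and dashed lines for N354. At least 10 CRYAB UMIs were found in 72.2% and 64.5% of Müller glia but in 0.153% and 0.132% of rods, and at least 10 HSPB1 UMIs in 69.4% and 61.5% of horizontal cells.

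In droplet data, free RNA from broken cells adds UMIs to droplets of every class, and it carries the genes of 1 source in 1 ratio. The CRYAB level of rods was therefore set beside that of 6 genes of Müller glia that were not used to define them (CLU, VIM, DKK3, APOE, KCNJ10 and GPX3). Rods had 5.65% (5.37 to 5.95) of the Müller level of CRYAB in N350 and 2.38% in N354 (2.11 to 2.69). The 6 other genes had between 3.57% and 7.27% in N350, with a median of 5.38%, and between 1.82% and 2.63% in N354, with a median of 2.03%. CRYAB thus lay inside the range of the Müller genes in both dogs, and the gap between the dogs in rods was shared by those genes. In cones the CRYAB value was 4.50% and 1.06%, within ranges of 1.79% to 4.87% and 0% to 1.07%. In astrocyte-like glia it was 50.7% and 77.4%, where the reference genes ranged from 12.3% to 195% and from 32.9% to 312% and so did not share 1 ratio. On this measure the CRYAB UMIs of rods and cones could not be told from background.

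**Figure D3:**
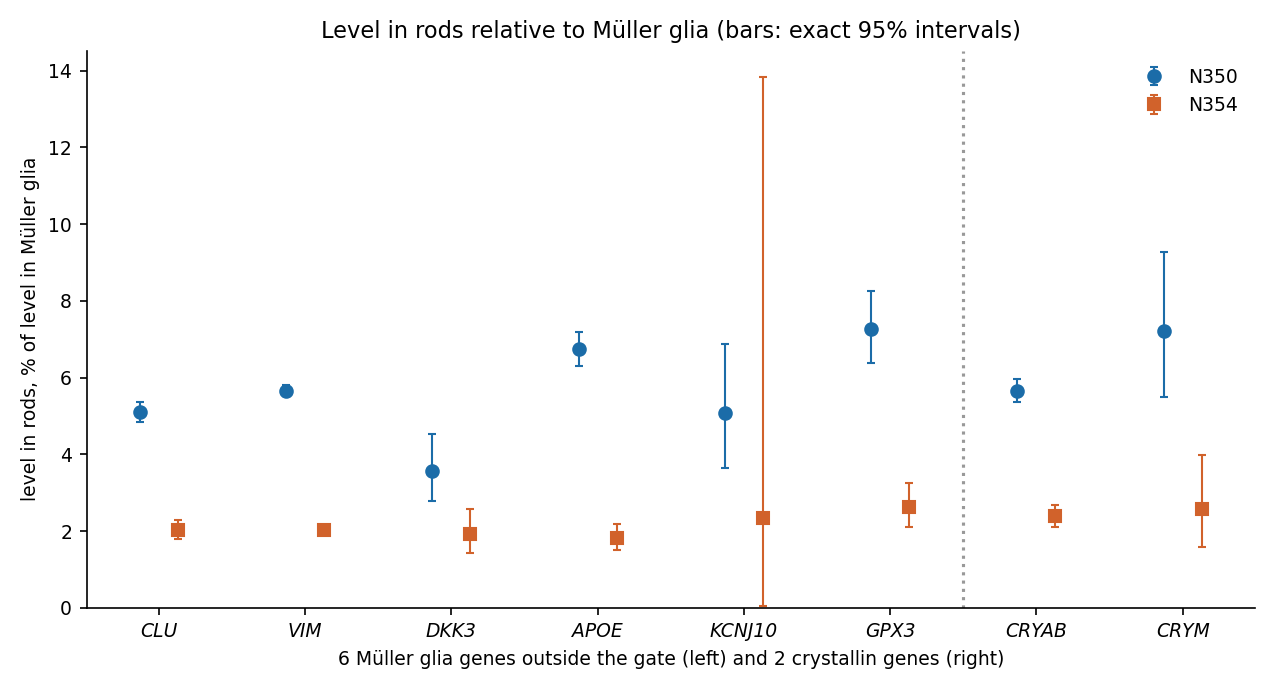
Level in rods as a percentage of the level in Müller glia for 6 Müller genes outside the class definition (left of the dotted line) and for CRYAB and CRYM (right), with 1 point per dog and bars for exact 95% intervals. CRYAB (5.65% and 2.38%) and CRYM (7.20% and 2.58%) lay within the spread of the 6 genes in each dog.

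Even so the CRYAB UMIs were not spread evenly among rods of either dog. Among the rods of N354, 41 droplets held 2 or more, against 15.3 expected from a single rate, a ratio of 2.68 (1.92 to 3.63). In N350 the ratio was lower, at 1.45 (1.29 to 1.62). When the rods of N350 were split by depth into 3 groups of equal size, the CRYAB level was 4.25 in the shallow group, 1.79 in the middle and 2.08 in the deep group. CLU moved in the same order, with levels of 4.22, 1.89 and 2.27. In N354 the CRYAB levels were 0.526, 0.618 and 0.937 from shallow to deep, so that the excess of the shallow group was seen in N350 alone.

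Genes of the early response to tissue dissociation were high in the same glia. The list of 8 such genes (FOS, FOSB, JUN, JUNB, EGR1, ATF3, DUSP1 and IER2) (all but JUN named in both dogs) had a summed level over the shared names of 218 in Müller glia of N350 and 41.3 in those of N354, against 22.4 and 2.70 in rods. All 7 tested genes were higher in Müller glia, in a comparison where 30.0% of all genes were called higher, but 1 of 7, FOSB, without the dog as a block. CRYAB in Müller glia was 42.4 and 32.2 in the same dogs. Across Müller droplets with at least 2000 UMIs, which share 1 library in each dog, Spearman's rho of CRYAB with FOS was 0.258 in N350 (n = 824 droplets) and 0.255 in N354 (n = 390 droplets), the highest of 7 genes set beside CRYAB there in both dogs. The part of dissociation in the CRYAB level was not tested.

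CRYM, the thyroid hormone binding protein, followed the same glial pattern at lower counts, with 1469 UMIs in N350 and 874 in N354. Its level in astrocyte-like glia was 2.51 in N350 (2.09 to 3.0) and 3.63 in N354 (2.77 to 4.69), and in Müller glia it was 1.38 (1.29 to 1.46) and 2.24 (2.08 to 2.42). In rods it was 0.0990 (0.0763 to 0.126) and 0.0578 (0.0358 to 0.0884). Both glial classes were above rods in both dogs, and unlike CRYAB the Müller level of CRYM was higher in N354 than in N350. Müller glia exceeded rods by 4.93 on the log2 scale (SE 0.34), with an adjusted p of 4.44e-10 by the quasi-likelihood test of edgeR after Benjamini-Hochberg adjustment, and the gene stood at place 446 of 11931. Astrocyte-like glia exceeded the mean of the other classes by 4.36 (SE 0.29, adjusted p 4.08e-10 by edgeR, 31.8% of genes called).

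Which glial class had more CRYM depended on the scale. By level, astrocyte-like glia were 1.83 times (1.5 to 2.21) above Müller glia in N350 and 1.62 times (1.22 to 2.12) in N354. In the edgeR fit, whose TMM scaling differs from a division by all UMIs and placed the median of all genes at -0.31 between these classes, the difference was -0.03 (SE 0.30) with an adjusted p of 0.975. The difference between the glial classes was therefore not resolved. A CRYM UMI was found in 50.7% (47.6 to 53.8) and 62.4% (58.0 to 66.8) of Müller glia, in 62.2% (50.1 to 73.2) and 60.5% (43.4 to 76.0) of astrocyte-like glia, and in 1.13% (0.859 to 1.45) and 0.695% (0.431 to 1.06) of rods. In droplets of at least 1000 UMIs, thinned to that depth (1 astrocyte-like droplet of N354 was left out besides the Müller glia and rods named above), these shares were 12.7% and 20.7% in Müller glia, 19.8% and 27.1% in astrocyte-like glia, and 0.603% and 0.312% in rods.

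In rods the CRYM UMIs, like those of CRYAB, could not be told from background. Müller glia held 69.2% and 78.0% of its UMIs. Rods had 7.20% (5.50 to 9.28) and 2.58% (1.59 to 3.98) of the Müller level, inside the ranges of the 6 reference genes given above. Cones had 11 UMIs in N350, a level of 0.0735, of which 1 droplet held 6 and without which the level was 0.0338. They had none in N354, and 3 UMIs there would be a level of 0.0487. Bipolar, amacrine and horizontal cells had between 0 and 12 UMIs in each dog.

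Other genes of thyroid hormone handling were set beside CRYM. Of 7 listed genes, 6 were named in both dogs and tested, and 4 were higher in Müller glia than in rods and none lower, with a list median of 1.99 on the log2 scale against -0.02 for all genes, of which 30.0% were called higher. DIO2, which converts the prohormone T4 to the active hormone, was higher by 5.94 (SE 0.46), with a level of 0.356 and 0.450 in Müller glia and 0.0124 and 0.00275 in rods. SLC16A10, which carries thyroid hormone across membranes, was higher by 2.51 on few UMIs, and the receptor THRA by 1.47. The level of THRA was nevertheless higher in bipolar (0.781 and 1.33), horizontal (0.901 and 1.59) and amacrine cells (0.836 and 2.27) than in Müller glia (0.326 and 0.562). Without the dog as a block only DIO2 of the 6 was called. The receptor THRB did not pass (-0.43, adjusted p 0.123 by edgeR), and its level was highest in cones, at 4.63 and 2.94.

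HSPB1 had a different distribution from that of CRYAB, its relative in the small heat shock family. Of the larger classes, horizontal and amacrine cells had the highest levels, and the gene had 5041 UMIs in N350 and 988 in N354. In horizontal cells, the lateral interneurons that contact photoreceptors, its level was 10.3 in N350 (9.71 to 10.9) and 11.4 in N354 (9.87 to 13.1). In amacrine cells, the inhibitory interneurons of the inner retina, it was 5.03 (4.72 to 5.36) and 5.90 (4.96 to 6.97). In Müller glia it was 0.303 (0.265 to 0.345) and 0.309 (0.250 to 0.378), the lowest level of the 7 larger classes in both dogs. The dogs gave nearly the same level in each of these classes, and the 3 classes did not overlap.

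Amacrine cells exceeded the mean of the other 5 classes by 2.76 on the log2 scale (SE 0.18), with an adjusted p of 3.29e-10 by the quasi-likelihood test of edgeR after Benjamini-Hochberg adjustment, where 36.7% of genes were called, and HSPB1 stood at place 1135 of 11931 in that comparison. The 13 horizontal cells of N354 kept that class out of the fit. When classes with at least 10 droplets were admitted, a choice made after the data had been seen, horizontal cells exceeded the other classes by 3.50 (SE 0.16, adjusted p 7.47e-14 by edgeR, 29.3% of genes called). They exceeded rods by 4.12 (SE 0.27, adjusted p 4.20e-11, 41.9% called), and amacrine cells were lower than horizontal cells by 1.20 (SE 0.25, adjusted p 0.00112, 19.4% called). By level, horizontal cells were above amacrine cells 2.04 times (1.88 to 2.22) in N350 and 1.93 times (1.55 to 2.41) in N354.

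Most droplets of these neurons held HSPB1. A UMI was found in 95.3% (88.4 to 98.7) and 100% (75.3 to 100) of horizontal cells, at median depths of 14698 and 14190 UMIs, and in 82.2% (76.9 to 86.6) and 93.3% (77.9 to 99.2) of amacrine cells, at 6234.5 and 6256 UMIs. Müller glia, which were as deep as amacrine cells, had 13.9% (11.9 to 16.2) and 15.1% (12.0 to 18.6), and rods had 5.71% (5.10 to 6.38) and 5.83% (5.02 to 6.72). In droplets of at least 1000 UMIs, thinned to that depth (2 amacrine droplets of N350 and no horizontal droplet were left out), these shares were 61.2% and 67.2% in horizontal cells, 36.0% and 39.9% in amacrine cells, 2.99% and 2.50% in Müller glia and 4.93% and 5.0% in rods. The median was 14 and 15 UMIs per droplet in horizontal cells and 3 and 3.5 in amacrine cells. In rods, droplets with 2 or more HSPB1 UMIs were 2.64 times (1.91 to 3.56) and 2.15 times (1.25 to 3.44) as many as a single rate predicts. In horizontal cells these ratios were 0.980 and 1.01. At medians of 14 and 15 UMIs nearly every horizontal droplet is predicted to hold 2 or more, so the ratio cannot show an uneven spread there.

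The intervals of the 2 main transmitter types of amacrine cells overlapped in both dogs. In a split made after the data had been seen, droplets with GAD1 or GAD2, which make GABA, and without the glycine transporter SLC6A9 had a level of 4.82 in N350 (4.41 to 5.25) and 6.09 in N354 (5.07 to 7.25). Droplets with SLC6A9 and without GAD1 and GAD2 had 5.70 (5.05 to 6.43) and 4.92 (2.46 to 8.80), the latter from 5 droplets. The order of the types was opposite in the dogs.

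The remaining classes filled the range between. Astrocyte-like glia had an HSPB1 level of 1.19 (0.907 to 1.54) and 1.29 (0.801 to 1.98), about 4 times that of Müller glia (3.94 times, 2.90 to 5.29, and 4.19 times, 2.48 to 6.78), a difference of 1.25 on the log2 scale in the edgeR fit (SE 0.31, adjusted p 0.00734) that was not called without the dog as a block (adjusted p 0.271). Bipolar cells had 1.25 in N350 (1.01 to 1.53) and 0.543 in N354 (0.369 to 0.771), rods had 0.588 (0.530 to 0.650) and 0.543 (0.469 to 0.624), and cones had 0.367 (0.277 to 0.478) and 0.552 (0.383 to 0.772). Bipolar cells and rods (0.61, adjusted p 0.111, 28.9% of genes called), cones and rods (-0.28, adjusted p 0.572), Müller glia and cones (-0.10, adjusted p 0.819, 43.7% called) and astrocyte-like glia and bipolar cells (0.26, adjusted p 0.580, 32.2% called) did not pass the edgeR test. Vascular cells had 9.80 (7.96 to 11.9) and 13.8 (7.11 to 24.0), near the horizontal cells but from 26 and 5 droplets. The 22 ganglion-like cells of N350 had 9.48 (8.68 to 10.3), with 111 of their 523 UMIs in 1 droplet, and in N354 no droplet was placed in that class.

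For HSPB1 the direction between Müller glia and rods turned with the scale. By level, Müller glia were at 0.515 times (0.435 to 0.609) rods in N350 and 0.569 times (0.440 to 0.731) in N354. Per droplet they had more, 3.01 times (2.54 to 3.56) and 2.94 times (2.28 to 3.78), since a Müller droplet held far more UMIs of all genes. The edgeR fit gave -0.38 (SE 0.25) with an adjusted p of 0.217. CRYAB, in contrast, was higher in Müller glia on every scale, 103 times (98.1 to 109) and 217 times (192 to 245) per droplet.

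**Figure D4:**
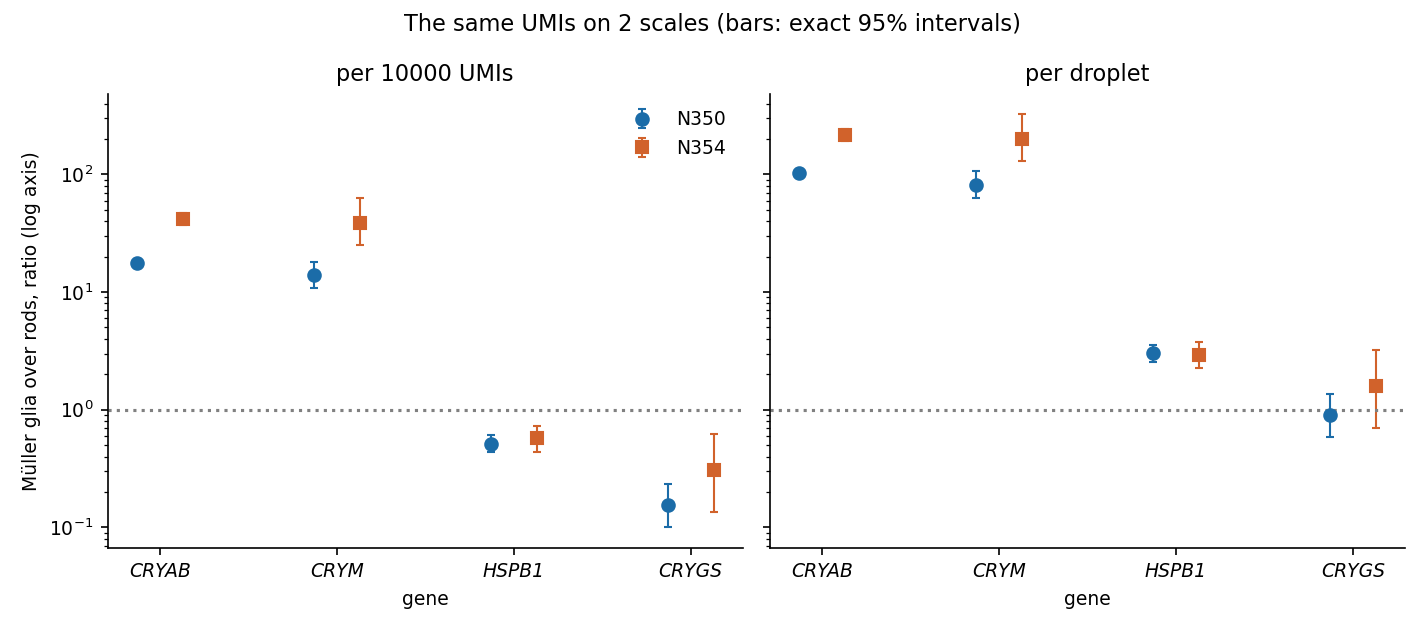
Ratio of Müller glia over rods (log axis) for CRYAB, CRYM, HSPB1 and CRYGS, as UMIs per 10000 UMIs (left) and as UMIs per droplet (right), with 1 point per dog, bars for exact 95% intervals and a dotted line at a ratio of 1. HSPB1 lay below 1 on the left (0.515 and 0.569) and above it on the right (3.01 and 2.94), while CRYAB and CRYM lay above 1 on both.

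CRYGS, the gamma crystallin that is also made in adult lens, had 312 UMIs in N350 and 85 in N354. Its level in rods was 0.243 in N350 (0.206 to 0.284) and 0.107 in N354 (0.0764 to 0.147). In cones it was 0.234 (0.163 to 0.325) and 0.162 (0.0779 to 0.299), in amacrine cells 0.161 (0.109 to 0.228) and 0.342 (0.148 to 0.674), and in Müller glia 0.0379 (0.0252 to 0.0547) and 0.0329 (0.0158 to 0.0604). Rods, cones and amacrine cells overlapped one another across the dogs, and Müller glia were below rods in both. Bipolar cells did not pass against rods (-0.47, adjusted p 0.523 by edgeR). In the fit with classes of at least 10 droplets, chosen after the data had been seen, horizontal cells differed from rods by -1.76 (SE 0.61, adjusted p 0.0230 by edgeR, 41.9% of genes called). Müller glia did not differ from horizontal cells there (-0.05, adjusted p 0.976), so a low CRYGS level was not particular to Müller glia. Müller glia were lower than rods by 1.81 on the log2 scale (SE 0.41), with an adjusted p of 0.000969 by the quasi-likelihood test of edgeR after Benjamini-Hochberg adjustment. This call was lost without the dog as a block, where the difference was -1.77 with an adjusted p of 0.149.

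The highest class of CRYGS by the mean over the dogs, amacrine cells at 0.252 ± 0.128 (SD, n = 2), did not pass against the other classes (0.55, SE 0.42, adjusted p 0.347 by edgeR). Cones did, by 1.13 (SE 0.39, adjusted p 0.0362, 28.4% of genes called), as did rods, by 0.82 (SE 0.32, adjusted p 0.0412, 44.9% called), but neither was called by edgeR without the dog as a block (adjusted p 0.371 and 0.483). Per droplet, rods and Müller glia were close. Rods held 0.0300 and 0.0129 UMIs and Müller glia 0.0273 and 0.0204, a ratio of 0.910 (0.586 to 1.37) and 1.58 (0.703 to 3.22), both intervals including 1. Rods held 50.3% and 45.9% of the CRYGS UMIs where an even spread over droplets would give 58.8% and 68.8%, and the share of droplets with a UMI was 2.94% and 1.23% in rods, 2.53% and 2.04% in Müller glia and 11.6% and 23.3% in amacrine cells. In droplets of at least 1000 UMIs, thinned to that depth, it was 2.49% and 1.02% in rods, 0.402% and 0.242% in Müller glia and 1.99% and 3.96% in amacrine cells. Of the 4 genes tested, CRYGS was the one nearest to an even spread over the droplets of rods and Müller glia. Its spread was not even over all classes, since amacrine droplets held a UMI more often, as given above.

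The remaining crystallins were rare. CRYBB1 had 31 UMIs in N350 and 1 in N354. In N350, 23 of the 31 lay in Müller glia, spread over 22 droplets, a level of 0.0311 (0.0197 to 0.0467) against 0.00464 (0.000957 to 0.0136) in rods, 6.70 times (2.02 to 34.9). The Müller glia of N354 had none, and 3 UMIs there would be a level of 0.00986, below the interval of N350, so that the depth of N354 was enough to show the level of N350. Whether the animal or its gene annotation made that difference cannot be told apart.

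CRYAA had 11 UMIs in N350, of which 4 were in amacrine cells, 3 in astrocyte-like glia, 1 in cones and 3 in droplets of no class, and none in rods or Müller glia. In N354 it had 0 UMIs, where 3 would be a level of 0.00310 over all droplets. CRYBB2 had 0 UMIs in both dogs, which allows levels of up to 0.00125 in N350 and 0.00310 in N354. For CRYAA and CRYBB2 no class could be tested, and a 0 says only that the RNA was not detectable at this depth with the annotation used.

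Other lens genes were counted as well. MIP, the main membrane protein of lens fibres, had 6 and 3 UMIs, and LIM2 and GJA3 had none in either dog. LGSN had 15 and 7, and BFSP2 had 3 in N350 and was not listed in N354. BFSP1 had 977 and 363 UMIs, of which 499 and 214 lay in Müller glia. Of the lens genes given here BFSP1 was thus counted most often, and the part of lens RNA in the counts of the 7 genes was not tested.

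Of 12 other crystallin genes, 9 were named in both dogs and 7 could be tested. In Müller glia over rods 4 were higher and none lower, with a median of 1.61 on the log2 scale against -0.02 for all genes, in a comparison where 30.0% of all genes were called higher. CRYBB3, a beta crystallin, was higher by 4.43 (SE 0.34, adjusted p 2.50e-09 by edgeR), with levels of 0.721 (0.661 to 0.785) and 0.509 (0.432 to 0.596) in Müller glia against 0.0511 and 0.0303 in rods. CRYBA4 was higher by 3.89 (SE 0.59), from levels of 0.0609 and 0.108 in Müller glia and of 0.00619 and 0.00826 in rods. The other pair that rose, CRYZ (3.0) and CRYL1 (1.61), are metabolic enzymes and not lens fibre proteins. CRYBA1, CRYGA and CRYGN did not pass, with 0.49, 0.44 and 1.0. On 20 and 10 UMIs, CRYGA was higher in amacrine cells over the other classes by 5.75 (SE 1.21, adjusted p 0.00118 by edgeR, 36.7% of genes called). CRYGN, on 47 and 6 UMIs, had its highest levels in astrocyte-like glia, at 0.268 and 0.308. Without the dog as a block 2 of the 7 were higher in Müller glia than in rods, CRYBA4 and CRYBB3, and the call of CRYGA in amacrine cells held. By the gene order of the dog assembly UU_Cfam_GSD_1.0, CRYBA4 lies beside CRYBB1 and CRYBB3 beside CRYBB2, so that in both pairs the neighbour was counted in Müller glia of both dogs and the gene of the 7 was rare or at 0.

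The other small heat shock genes were taken by their HSPB symbols alone, so that a gene such as HSPB11 is listed by name and not by chaperone activity. Of these 7 genes, 6 were named in both dogs and 4 tested. In Müller glia over rods 3 were higher (HSPB2, HSPB6 and HSPB11) and none lower. The median was 3.09 against -0.02 for all genes, of which 30.0% were called higher. HSPB2, the neighbour of CRYAB in that assembly, was higher by 4.40 (SE 0.30), yet its levels of 0.611 and 0.677 in Müller glia were close to those in horizontal cells, 0.617 and 0.793, and in amacrine cells, 0.654 and 0.984. HSPB2 thus appeared both where CRYAB was high and where HSPB1 was high. Its level was highest in astrocyte-like glia, at 0.907 and 1.29. Amacrine cells exceeded the mean of the other classes in HSPB2 by 2.97 (SE 0.30, adjusted p 1.64e-07 by edgeR). Müller glia did so by 3.66 and astrocyte-like glia by 3.60. The difference of Müller glia over amacrine cells in HSPB2 did not pass (0.57, adjusted p 0.0962 by edgeR). HSPB6 had a level of 1.03 in Müller glia of N350 but of 0.0361 in those of N354. HSPB8, the partner of the co-chaperone BAG3, did not pass (0.16) and was found in bipolar cells, at 0.351 and 1.44, and in astrocyte-like glia, at 0.144 and 0.924. Without the dog as a block 2 of the 4 were higher, HSPB2 and HSPB11.

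Chaperones outside this family were called in both directions. Their list of 19 genes also held the heat shock factors HSF1, HSF2 and HSF4, which are not chaperones. All 14 listed genes that were named in both dogs were tested, the factors among them. In Müller glia over rods 3 were higher (HSP90AB1 by 1.22, HSPA5 by 0.97 and HSP90B1 by 0.84). There 2 were lower (HSP90AA1 by -1.0 and HSPH1 by -0.65). The median of the 14 was -0.07, where 56.5% of all genes were called. In amacrine cells over the other classes, where HSPB1 was high, HSP90AB1 was higher by 0.61 and HSPA2, BAG3, DNAJB1 and HSPA8 were lower, so that 5 of 14 were called where 36.7% of all genes were. HSF1 and HSF4, factors that switch on heat shock genes, differed between Müller glia and rods by -0.19 and -0.58 and did not pass. These chaperone calls were lost without the dog as a block.

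**Figure D5:**
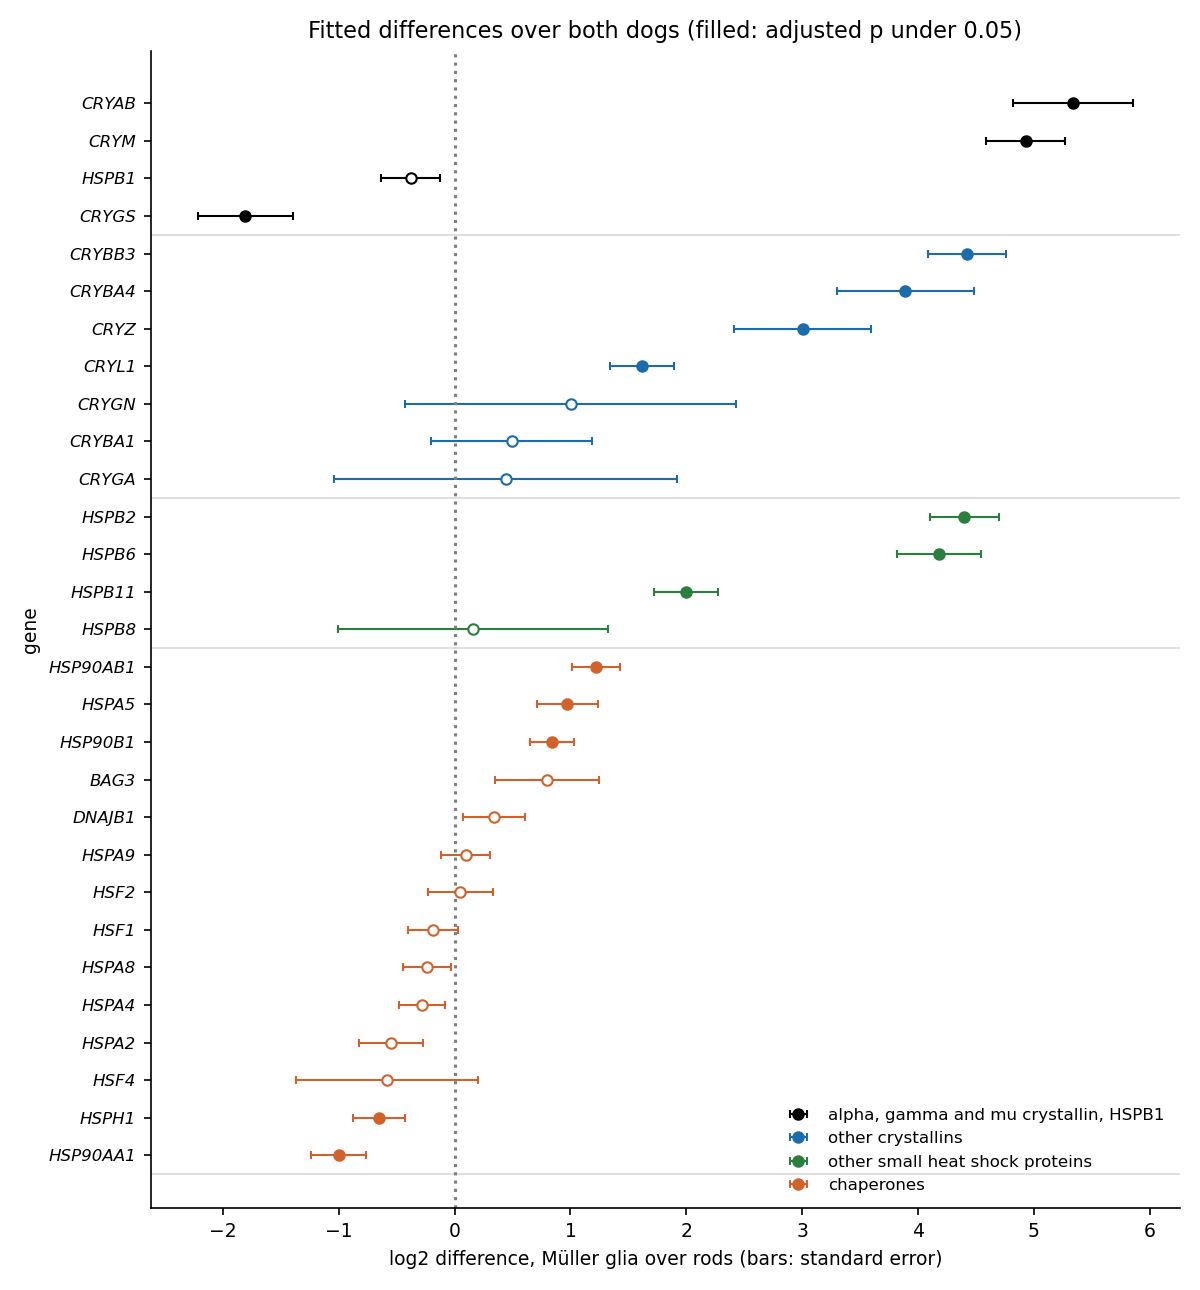
Fitted log2 difference of Müller glia over rods with its standard error for CRYAB, CRYM, CRYGS and HSPB1 (top), other crystallins, other small heat shock genes and other chaperones. The chaperones are shown with the heat shock factors of their list, and filled points mark an adjusted p under 0.05 by edgeR. CRYAB (5.34), CRYM (4.93), CRYBB3 (4.43) and HSPB2 (4.40) lay farthest to the right, and the other chaperones lay between -1.0 and 1.22.

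The genes whose pattern was most like that of each gene were found by Pearson's r of log2 CPM over the 12 sums of 2 dogs and 6 classes, among 6397 genes. For CRYAB they were CLU (0.990), MFAP2 (0.984) and ADAMTS19 (0.982), and for CRYM they were MXRA8 (0.978), PON2 (0.973) and SLC15A2 (0.971). For HSPB1 the highest values were lower, with RAB6A (0.897), SLC8A1 (0.895) and AP2A1 (0.893). The 12 sums share dogs and libraries, and these values describe likeness only. CRYGS had too few UMIs in N354 to be ranked.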

How the data were processed

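The authors counted reads per gene and droplet with Cell Ranger 6.0.2, per the file headers, and deposited raw UMI counts of droplets called as cells, without normalization; the study names canFam6 as the genome, while the gene annotations were not given in the sources used here and differed between the dogs. Counts of the 17 names that occurred more than once in N354 were summed.

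Droplets with at least 200 genes were kept (8895 and 4387). The study's limit of 5% on names that start with MT- was not the main setting, because N350 listed only MT-III under such a name, so that the limit would keep 8895 droplets of N350 and 1369 of N354. Class rules asked for at least 5 UMIs from at least 2 markers and for a minimum marker level per 10000 UMIs (100 for rods and cones, 60 for Müller glia, 30 for bipolar cells, microglia and vascular cells, 10 for horizontal, amacrine and ganglion-like cells, 5 for astrocyte-like glia). These minimum levels were settled after the marker levels had been seen. Droplets that met the rules of horizontal and amacrine cells were counted as horizontal. Scrublet's own threshold marked 0% and 0.0455% of droplets, so doublets were not removed in the main setting, and the 4% with the highest scores were removed as an alternative.

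UMIs were summed per dog and class and tested with edgeR 4.0.16 (quasi-likelihood test, TMM, dog as a block, Benjamini-Hochberg) in R 4.3.3. The classes of a dog are paired by their animal, and over 15 pairs of classes the deviations from the class means correlated between 0.543 and 0.825 (median 0.681). The test was tested on simulated data. DESeq2 1.42.0 and other filters, gates and limits were alternatives. Levels, exact Poisson and binomial intervals and shares thinned to 1000 UMIs (shallower droplets left out) were computed in Python 3.11.15 with numpy 2.4.6, scipy 1.17.1 and pandas 2.3.3, with Scrublet in scanpy 1.11.5. A count of 0 allows up to 3 UMIs. The genes named were the 7 genes, fixed lists of other crystallins, small heat shock proteins, chaperones, thyroid hormone genes and dissociation genes, lens, pigment epithelium and blood markers, and, for genes with at least 100 UMIs in each dog, the 3 most alike. The genes and lists were chosen with earlier results of these data known. Pigment epithelium markers were rare (RPE65 3 and 0 UMIs, PMEL 10 and 5, BEST1 5 and 6, TTR 3 and 0, TYRP1 20 in N350), as was PTPRC of blood cells (17 and 10), and CD3E had 0. No sequence or coordinate was used, since no genome of the same build was used here. Values of some listed genes and markers are not reported here.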

Additional observations from a re-analysis of the deposited data

Results flagged for a closer look

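Droplets that passed no class rule were outside the comparisons, and the genes were counted there too. Their level of CRYAB was 11.6 in the 1354 such droplets of N350 and 8.51 in the 214 of N354, that of CRYM 0.773 and 0.878, that of HSPB1 3.95 and 3.97, that of CRYGS 0.106 and 0.0763, and that of CRYBB1 0.0189 in N350, each above the limit that a count of 0 allows. The HSPB1 UMIs there were concentrated. In N350, 58 droplets (4.28%) with at least 5 UMIs held 46.5% of the unassigned HSPB1 UMIs, and CALY was found in 52 of them, RTN1 in 47 and NPPC in 42, while 3 held 272 UMIs of TH, the rate-limiting enzyme of dopamine synthesis. In N354, 8 such droplets held 26.4% of the unassigned HSPB1 UMIs. For CRYAB, 86 droplets of N350 and 16 of N354 with at least 10 UMIs held 45.5% and 61.4% of its unassigned UMIs, and WFDC2, a leading gene of the astrocyte-like glia, was counted in 44 of the 86. These droplets were singled out by their HSPB1 or CRYAB UMIs, so that the values describe them and were not tested.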

How the results depend on the processing

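The dog as a block, the mitochondrial limit, the doubled marker minimum, the removal of doublets, DESeq2, the count filter, the exclusion of mitochondrial genes from the totals and, added after seeing the data, the classes of at least 10 droplets were each changed alone. CRYAB in Müller glia over rods stayed between 4.98 and 5.82 on the log2 scale (adjusted p up to 0.0305), CRYM between 4.14 and 5.67 (up to 0.00679) and HSPB1 between -0.81 and -0.21 (0.140 to 0.690), each on its side of 0.05. CRYGS ranged from -2.33 to -1.60. Without the replicate block its value was -1.77 and its call was lost (adjusted p 0.149), whereas the calls of CRYAB and CRYM over rods and of CRYAB, CRYM and HSPB1 in their class over the others held. Contrasts that lost their call without the block are named beside their values. The fit with classes of at least 10 droplets was not run without the block, so the contrasts of horizontal cells were not checked in this way. Without the block, genes called higher in Müller glia over rods numbered 1216 in place of 3579 and genes called lower 561 in place of 3165. DESeq2 called 1971 genes lower, and its scaling placed the median of all genes at 0.14 in place of -0.02. Each dog left out in turn gave values with no test, from 4.04 to 5.67 for CRYM in astrocyte-like glia over the other classes and from 0.11 to 2.39 for CRYGS in amacrine cells over the other classes, where the value rests on N354. Shares of droplets moved with thinning in 44 cases. The study's limit on MT- names left only rods and Müller glia, the doubled marker minimum left too few astrocyte-like glia, and the limit of 10% left too few bipolar cells, so that those contrasts were not run there. Limits are the 2 dogs, the differing annotations and the few droplets of horizontal, amacrine and astrocyte-like classes in N354.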
